A study of Mus musculus with 6 samples.

Results

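The 8 genes described here encode the mRNA decay factors of the Btg and Tob family (*Btg1*, *Btg2*, *Btg3*, *Tob1* and *Tob2*, with gene IDs 12226, 12227, 12228, 22057 and 57259 in the table) and of the Zfp36 family (*Zfp36*, *Zfp36l1* and *Zfp36l2*, with gene IDs 22695, 12192 and 12193). They were picked out by gene symbol from an expression table of 17784 genes, and all 8 were found and passed the filter for low counts. Bulk RNA-seq of corneal epithelial cells covered 3 samples from *Prrx1-CreERT;Ptch1*f/f mice, called Ptch1Prrx1, and 3 samples from control mice, which the labels call WT or ctrl and the study's schematic *Ptch1*f/f. Per the labels, mice of both groups were 10 weeks old, received 3 doses of tamoxifen, and are given a treatment time of 2 months, and the epithelium was separated with EDTA. The study's text describes tamoxifen at 2 months of age in this cross and states no age for the epithelial RNA-seq. How this fits with the age and time in the labels is not settled here. *Prrx1-CreERT* is a tamoxifen-inducible Cre that acts in keratocytes, the corneal endothelium and other mesenchymal cells of the eye, so the deletion of *Ptch1*, the inhibitory Hedgehog receptor, was directed at cells beneath the epithelium and not at the cells measured. The study describes the 3 samples of a group as biological replicates, and whether any sample pooled mice is not given in the sources used here.

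An mRNA is usually removed by shortening its poly(A) tail, after which it is decapped and degraded from its 5′ end or degraded from its 3′ end by the exosome. Btg and Tob proteins bind the CAF1 deadenylases of the CCR4-NOT complex, encoded by *Cnot7* and *Cnot8*, and are known as brakes on cell proliferation. Zfp36 proteins, of which the founding member is also called tristetraprolin, bind AU-rich elements in 3′ untranslated regions and bring CCR4-NOT to short-lived mRNAs of cytokines and early response genes. *Btg2* and *Zfp36* are themselves immediate early genes, transcribed within minutes of growth factor, stress or inflammatory signals.

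Depth was close to equal, with 20296741 to 20625813 expected counts per sample. The corneal epithelial markers *Krt12*, *Krt5*, *Pax6*, *Aldh3a1*, *Krt14* and *Trp63* were present in all samples, with a summed level of 98887 to 106698 TPM (a level scaled for transcript length and depth) in controls and 89223 to 109359 TPM in Ptch1Prrx1 samples. *Ptch1* itself lay between 517 and 682 normalized counts (expected counts scaled to a common library size) in controls and between 390 and 471 in Ptch1Prrx1 samples, a log2 fold change of -0.51 (adjusted p = 0.0401 from edgeR) that is below a fold of 2. Since the deletion was directed at other cells, this value does not check the labels. Ptch1Prrx1 replicate 1 stood apart from replicates 2 and 3 in the whole transcriptome, at 48.2 on the first principal component against 16.9 and 18.1, with the controls at -31.8 to -25.1. Each of the 8 genes is therefore also given with any single sample left out.

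*Btg2* was 3.00-fold and *Zfp36* 2.76-fold higher in Ptch1Prrx1 epithelium, *Zfp36l2* was 1.52-fold higher, and *Zfp36l1*, *Tob1* and *Tob2* overlapped between the groups. A gene was called when its p from edgeR's quasi-likelihood test, adjusted over all genes by Benjamini-Hochberg, did not exceed 0.05 and its fold was 2 or more. By this rule 2 of the 8 genes were called higher and 0 lower, where 2.34% of the 12999 genes tested were called higher and 0.892% lower. The 2 were *Btg2* and *Zfp36*. With no minimum fold, 3 were past the adjusted p, all higher, where 7.61% of all genes were, and the addition was *Zfp36l2*. That count depended on the setting: *Zfp36l2* was no longer past the adjusted p when any 1 of the controls was left out, and *Btg1* came past it in DESeq2, with DESeq2's size factors in edgeR, with the replicate number as a block, in both limma fits on log2 TPM and without control replicate 1. The groups did not overlap for 5 genes, each higher in Ptch1Prrx1 samples, against 19.7% of all genes higher and 20.3% lower without overlap. The median log2 fold change was 0.36 over the 8 genes and -0.01 over all genes tested. The genes had been selected on this same contrast of counts and TPM between the groups, so their differences are a description, and no p-value is given for any of them. In bulk samples, more cells of a type and more RNA per cell cannot be told apart.

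**Figure D1:**
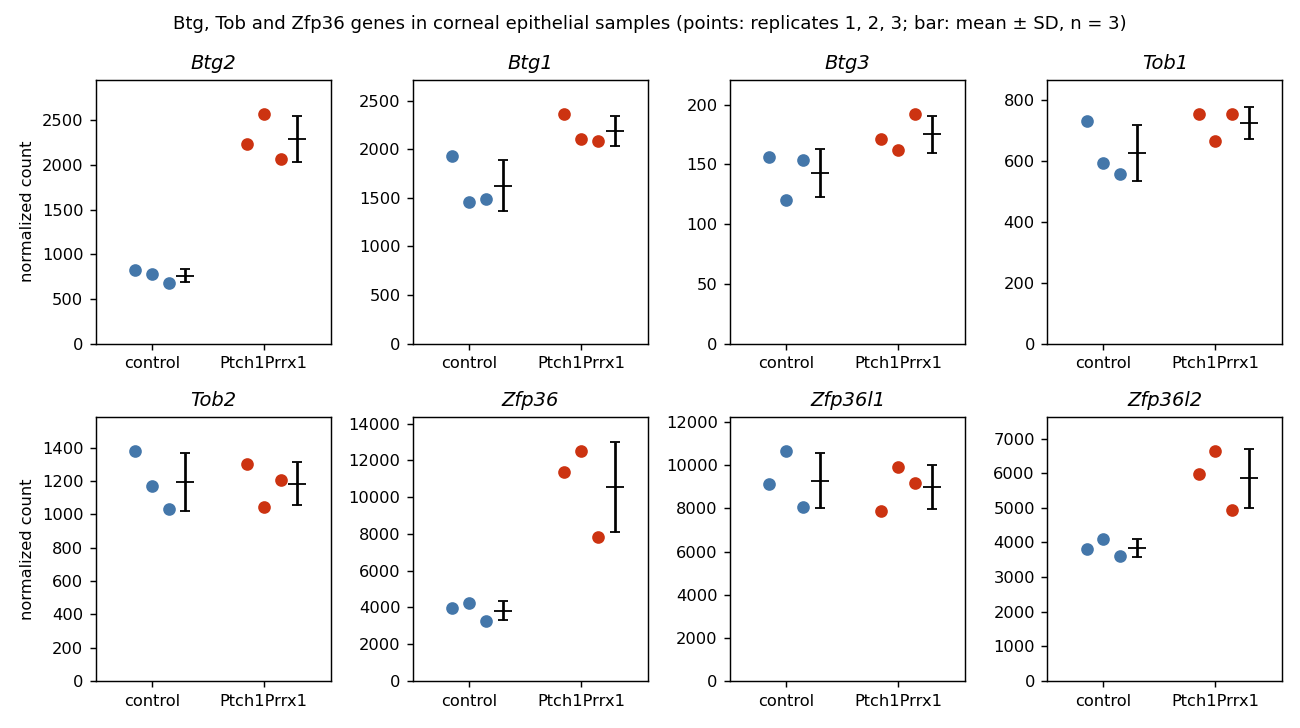
Normalized counts (vertical axes, each from 0) of the 8 genes in control (blue) and Ptch1Prrx1 (red) samples, with replicates 1, 2 and 3 from left to right and the mean ± SD (n = 3) in black. The points of *Btg2* and *Zfp36* are widely separated between groups, while those of *Zfp36l1*, *Tob1* and *Tob2* overlap.

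*Btg2*, an antiproliferative gene also induced by p53, had 824, 782 and 680 normalized counts in control replicates 1, 2 and 3. It had 2237, 2569 and 2062 in Ptch1Prrx1 replicates 1, 2 and 3. Every Ptch1Prrx1 sample was high, and the lowest of them was 2.50 times the highest control. The means were 762 ± 73.7 and 2289 ± 257 (SD, n = 3), with a log2 fold change of 1.59 (standard error, SE, of 0.11 in edgeR). With any single sample left out it lay between 1.49 and 1.66, and by log2 fold change *Btg2* ranked 215 from the top among the 12999 genes.

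*Zfp36*, the tristetraprolin gene, had 3947, 4260 and 3258 normalized counts in control replicates 1, 2 and 3. It had 11385, 12478 and 7807 in Ptch1Prrx1 replicates 1, 2 and 3. The groups did not overlap, the lowest Ptch1Prrx1 sample, replicate 3, being 1.83 times the highest control. The means were 3822 ± 512 and 10557 ± 2443 (SD, n = 3), so the Ptch1Prrx1 samples varied more among themselves than for *Btg2*, with coefficients of variation of 23.1% and 11.2%. The log2 fold change was 1.47 (SE 0.18) and lay between 1.33 and 1.64 when any single sample was left out.

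The 300 bases around the start of a gene (250 before and 50 after) were available for 7 of the 8 genes from RefSeq on GRCm38.p6, and 4 are shown because they set the called genes beside family members that were not called. *Zfp36l2* had no entry. Capitals mark matches on either strand to a CArG box (the site of serum response factor), TGACGTCA (a full cAMP response element), its core TGACG, the AP-1 motif TGANTCA, the EGR motif GCGNGGGCG or the TATA box motif TATAAA. The core lies within the full element, so the matches to these overlap. The windows, on build GRCm38.p6, are chr1:134079106-134079405 (minus strand) for *Btg2*, chr7:28379179-28379478 (minus strand) for *Zfp36*, chr10:96616751-96617050 (plus strand) for *Btg1* and chr12:80112964-80113263 (minus strand) for *Zfp36l1*.
Btg2: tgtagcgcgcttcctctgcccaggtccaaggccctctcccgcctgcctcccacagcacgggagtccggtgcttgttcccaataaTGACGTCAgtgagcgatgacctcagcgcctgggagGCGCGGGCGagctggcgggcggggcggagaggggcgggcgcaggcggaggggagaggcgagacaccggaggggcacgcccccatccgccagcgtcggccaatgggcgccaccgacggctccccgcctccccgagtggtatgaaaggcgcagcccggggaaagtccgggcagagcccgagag
Zfp36: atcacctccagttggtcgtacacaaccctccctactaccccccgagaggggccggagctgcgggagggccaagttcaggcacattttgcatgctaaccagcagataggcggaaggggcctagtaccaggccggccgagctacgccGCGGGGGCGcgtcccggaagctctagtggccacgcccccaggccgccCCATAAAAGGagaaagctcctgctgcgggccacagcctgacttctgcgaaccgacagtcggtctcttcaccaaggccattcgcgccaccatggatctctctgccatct
Btg1: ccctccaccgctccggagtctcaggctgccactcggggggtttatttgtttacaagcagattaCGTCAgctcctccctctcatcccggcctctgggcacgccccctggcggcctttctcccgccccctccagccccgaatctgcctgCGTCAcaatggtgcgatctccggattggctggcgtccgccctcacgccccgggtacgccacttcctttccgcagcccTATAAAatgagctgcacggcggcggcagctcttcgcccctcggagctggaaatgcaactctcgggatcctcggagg
Zfp36l1: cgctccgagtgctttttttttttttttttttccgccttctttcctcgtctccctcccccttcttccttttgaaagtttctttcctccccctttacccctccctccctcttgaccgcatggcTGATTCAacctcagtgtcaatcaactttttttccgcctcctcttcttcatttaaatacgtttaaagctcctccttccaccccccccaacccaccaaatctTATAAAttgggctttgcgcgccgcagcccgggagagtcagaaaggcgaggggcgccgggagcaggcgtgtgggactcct

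The window of *Btg2* held TGACGTCA from -166 to -159 relative to the start and an EGR match from -131 to -123. TGACGTCA was in 1.79% of all 32851 windows and in 2.95% of the 13292 windows of tested genes. The window of *Zfp36* held a CArG box from -58 to -49, a match found in 1.63% of all windows and 1.29% of those of tested genes, and an EGR match from -105 to -97. EGR matches were found in 5.55% of all windows and 10.2% of those of tested genes. *Btg1* held the core TGACG on the minus strand from -187 to -183 and from -103 to -99, and *Tob1* held it from -96 to -92, while 20.8% of all windows and 29.7% of those of tested genes held it. *Zfp36l1* held an AP-1 match from -129 to -123, found in 7.81% of all windows and 5.44% of those of tested genes. TATAAA was present in *Btg1*, *Tob1* and *Zfp36l1* and in 13.6% of all windows and 7.49% of those of tested genes. No match to any of these letters lay in the windows of *Btg3* and *Tob2*. The motifs were chosen after the windows had been read, and a match describes the letters only.

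**Figure D2:**
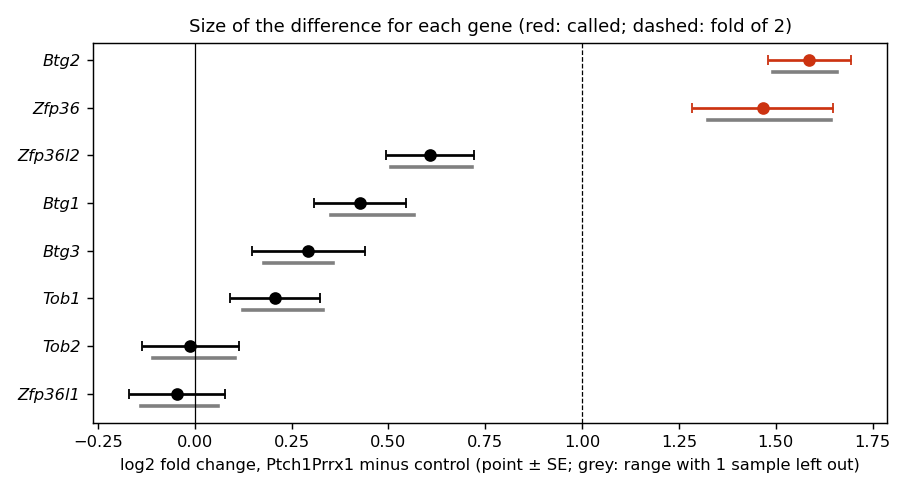
Log2 fold change of each gene (horizontal axis, Ptch1Prrx1 minus control) as a point with its standard error from edgeR, red where the gene was called, above a grey bar that spans the values with any single sample left out. *Btg2* (1.59) and *Zfp36* (1.47) lie to the right of the dashed line at a fold of 2, and *Tob2* and *Zfp36l1* lie near 0.

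The paralogs of *Zfp36* had smaller log2 fold changes. *Zfp36l2*, best known for its part in lymphocyte and oocyte development, had 3809, 4102 and 3603 normalized counts in control replicates 1, 2 and 3. It had 5986, 6628 and 4930 in Ptch1Prrx1 replicates 1, 2 and 3. All Ptch1Prrx1 samples were above the controls, by 1.20 times at the nearest pair, and the log2 fold change was 0.61 (SE 0.11), or 0.51 to 0.72 with any single sample left out, below the fold required for a call. *Zfp36l1* had 9145, 10638 and 8072 normalized counts in the controls and 7893, 9905 and 9185 in the Ptch1Prrx1 samples, in replicate order. The highest of its 6 values was in a control sample and the lowest in Ptch1Prrx1 replicate 1, and the groups overlapped. Its log2 fold change was -0.05 (SE 0.12), with a sign that turned positive (0.061 and 0.043) without control replicate 2 or Ptch1Prrx1 replicate 1.

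Among the relatives of *Btg2*, *Btg1*, which is expressed widely in resting cells, had 1931, 1459 and 1486 normalized counts in control replicates 1, 2 and 3. It had 2361, 2110 and 2084 in Ptch1Prrx1 replicates 1, 2 and 3. The groups did not overlap, though control replicate 1 came within 1.08 times of the lowest Ptch1Prrx1 sample, and the log2 fold change was 0.43 (SE 0.12), or 0.35 to 0.57 with any single sample left out. *Btg3* had the lowest counts of the 8 genes, at 156, 120 and 153 normalized counts in the controls and 172, 162 and 192 in the Ptch1Prrx1 samples. Its groups were separated by 1.04 times at the nearest pair, and the log2 fold change was 0.29 (SE 0.15), or 0.18 to 0.36 with any single sample left out.

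The Tob genes, which encode longer proteins of the same family with binding motifs for poly(A)-binding protein, overlapped between the groups. *Tob1* had 732, 595 and 556 normalized counts in control replicates 1, 2 and 3 and 755, 665 and 755 in Ptch1Prrx1 replicates 1, 2 and 3. Control replicate 1 lay above Ptch1Prrx1 replicate 2, and the log2 fold change was 0.21 (SE 0.12), or 0.13 to 0.33 with any single sample left out. *Tob2* had 1377, 1172 and 1030 normalized counts in the controls and 1300, 1045 and 1207 in the Ptch1Prrx1 samples. Its log2 fold change was -0.01 (SE 0.12), and the sign turned positive without control replicate 1 (0.10) or Ptch1Prrx1 replicate 2 (0.07). *Btg4* and *Zfp36l3*, the remaining relatives, known from the egg and the placenta, were not found by symbol among the 17784 genes of the expression table.

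Levels of different genes were compared in TPM, which is scaled for transcript length. In control epithelium the Zfp36 genes were the most abundant of the 8, with means of 335 TPM for *Zfp36l1*, 236 TPM for *Zfp36* and 117 TPM for *Zfp36l2*, and the ranges of these neighbours did not overlap. The lowest of these means was above that of 90.3% of the genes tested. Then came *Btg1* at 34.6 TPM, *Tob2* at 32.0 TPM, *Tob1* at 29.7 TPM and *Btg2* at 26.6 TPM, a run in which each gene overlapped the next. *Btg3* was the least abundant at 11.4 TPM, below every value of *Btg2*. In Ptch1Prrx1 epithelium *Zfp36* came first at 631 TPM, ahead of *Zfp36l1* at 317 TPM with no overlap, and *Btg2* was the fourth at 77.7 TPM, above every value of *Btg1*. The only neighbours that overlapped in these samples were *Tob1* and *Tob2*.

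The make-up of each family differed accordingly between the groups. In TPM, the level of *Zfp36* was 0.738, 0.685 and 0.690 times that of *Zfp36l1* in control replicates 1, 2 and 3, and 2.47, 2.15 and 1.45 times that of *Zfp36l1* in Ptch1Prrx1 replicates 1, 2 and 3. *Zfp36* made up 34.3% ± 0.977 of the summed TPM of the 3 family members in controls and 56.0% ± 5.30 in Ptch1Prrx1 samples (SD, n = 3). The share of *Zfp36l1* was 48.7% ± 0.975 in controls and 28.6% ± 5.23 in Ptch1Prrx1 samples, and that of *Zfp36l2* was 17.0% ± 1.04 and 15.4% ± 0.231. The summed level of the family was 687 ± 82.7 TPM and 1121 ± 159 TPM in the same order. *Btg2* made up 19.9% ± 1.41 of the summed TPM of the 5 Btg and Tob genes in controls and 38.5% ± 3.99 in Ptch1Prrx1 samples. The sum of these 5 genes was 134 ± 13.1 TPM in controls and 202 ± 3.06 TPM in Ptch1Prrx1 samples. Shares within a family rest on the same values as the fold changes above and add no separate evidence.

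**Figure D3:**
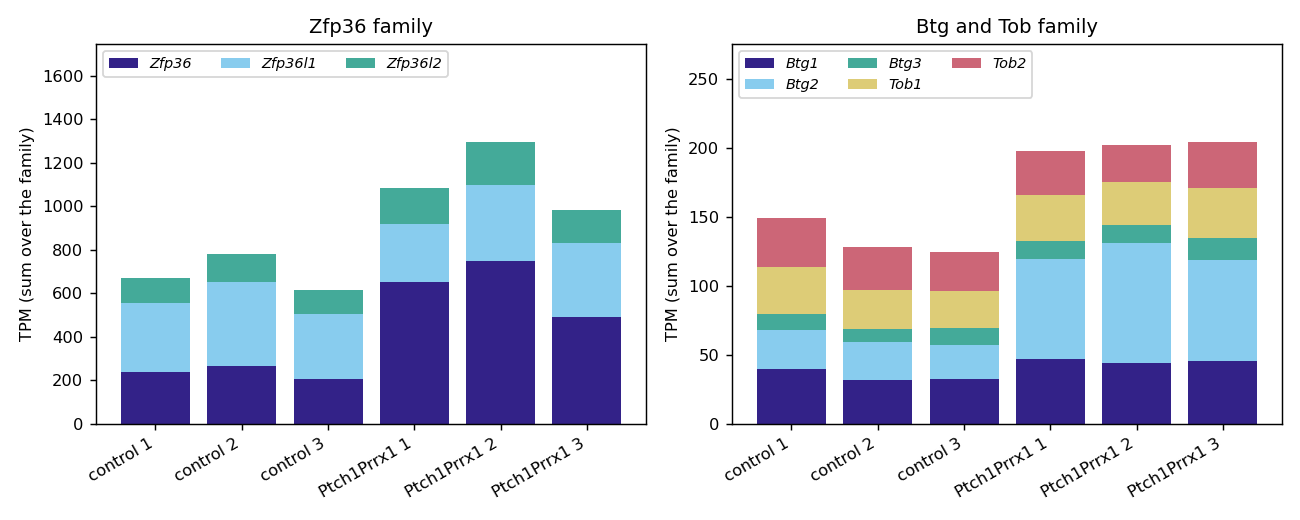
TPM of each gene (vertical axis, stacked from 0) in the 6 samples, for the Zfp36 family on the left and the Btg and Tob family on the right. The *Zfp36* segment is the smaller one beside *Zfp36l1* in every control and the larger one in every Ptch1Prrx1 sample, and the *Btg2* segment is larger in every Ptch1Prrx1 sample than in any control.

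No gene on the lists of the mRNA decay machinery was called, where few genes were called over the whole table. Lists were written for the deadenylases (15 genes), the poly(A)-binding proteins and their partners (5), decapping and decay from the 5′ end (20), and the exosome with its SKI cofactors (16), 56 genes in all, and all 56 were tested. In edgeR 0 were called in either direction, where 2.34% of all genes tested were called higher and 0.892% lower. Shares this small leave few calls to be expected among 56 genes, so 0 does not set the lists apart. In edgeR 10 had an unadjusted p under 0.05, where 33.5% of all genes tested had one. DESeq2 and limma on log2 TPM also called 0. With no minimum fold, 2 were past the adjusted p upward and 0 downward, where 7.61% and 6.41% of all genes were. The median log2 fold change of the 56 genes was 0.02, with 31 above 0 and a range from -0.39 to 0.46. *Cnot1*, the scaffold of CCR4-NOT and the docking site of Zfp36 proteins, had 4191 ± 196 normalized counts in controls and 5043 ± 51.8 in Ptch1Prrx1 samples (SD, n = 3). Its log2 fold change was 0.27 (SE 0.06, with an edgeR adjusted p of 0.0334), past the adjusted p but far from the fold of a call. *Eif4enif1*, which represses translation and binds decapping factors, was the other gene past the adjusted p, with a log2 fold change of 0.25 (adjusted p = 0.0368 from edgeR).

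The CAF1 deadenylases bound by Btg and Tob proteins overlapped between the groups. *Cnot7* had 853 ± 48.5 normalized counts in controls and 836 ± 101 in Ptch1Prrx1 samples, and *Cnot8* had 618 ± 48.0 and 580 ± 21.1 (SD, n = 3). The log2 fold changes were -0.03 (SE 0.10) for *Cnot7* and -0.09 (SE 0.08) for *Cnot8*, for which edgeR gave adjusted p of 0.870 and 0.468. *Parn*, a separate deadenylase, had a log2 fold change of -0.19 (adjusted p = 0.110 from edgeR). *Pabpc1*, the main cytoplasmic poly(A)-binding protein, had one of 0.17 (adjusted p = 0.228 from edgeR), *Pabpc4* one of 0.35 and *Paip2b*, an inhibitor of poly(A)-binding protein, one of -0.23 (adjusted p of 0.103 and 0.0677 from edgeR). *Patl1* of the decapping machinery, *Exosc8* of the exosome and *Skic3* (*Ttc37* in the table) of the SKI complex had log2 fold changes of 0.26, 0.46 and 0.27, for which edgeR gave adjusted p of 0.0758, 0.0701 and 0.0744.

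Of 30 other factors that destabilise or stabilise mRNA, 28 were tested and 0 were called in edgeR or DESeq2. In edgeR 2.34% of all genes were called higher and 0.892% lower. Of the 28, 12 had an unadjusted p under 0.05 in edgeR, where 33.5% of all genes had one. With no minimum fold, 4 were past the adjusted p upward and 1 downward, where 7.61% and 6.41% of all genes were, and the median log2 fold change was 0.09. *Zc3h12a*, which encodes the endonuclease Regnase-1 that cleaves cytokine mRNAs, had 556, 740 and 742 normalized counts in control replicates 1, 2 and 3. It had 1255, 909 and 1155 in Ptch1Prrx1 replicates 1, 2 and 3. The groups did not overlap, and the log2 fold change was 0.70 (SE 0.15, with an edgeR adjusted p of 0.0282). *Cpeb3*, a repressor of translation, was the gene past the adjusted p downward, with a log2 fold change of -0.76 (adjusted p = 0.0165 from edgeR), and *Samd4b*, a Smaug protein that recruits CCR4-NOT, had one of 0.40 (adjusted p = 0.0237 from edgeR). *Elavl1*, which encodes HuR, a stabiliser that binds the same AU-rich elements, had a log2 fold change of 0.10 (adjusted p = 0.324 from edgeR). Of the 10 kinases of the p38 and MK2 route, which phosphorylates Zfp36, 0 were called in edgeR or DESeq2, beside the same shares of all genes. In edgeR 7 of the 10 had an unadjusted p under 0.05, where 33.5% of all genes had one. With no minimum fold 1 was past the adjusted p upward and 3 downward, among them *Mapk11* with a log2 fold change of -0.64 and *Mapkapk3* with one of -0.25 (adjusted p of 0.0256 and 0.0327 from edgeR).

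mRNAs described in other cells as bound or destabilised by Zfp36 proteins were listed next, 23 in number, of which 22 were in the table and 14 passed the filter. The 8 that failed it had at most 13 counts in any sample and included *Il6*, *Il1b* and *Csf2*. Among the 14 tested, 4 were called higher and 0 lower in edgeR, beside 2.34% and 0.892% of all genes. The number called higher was 0 without control replicate 2 and 2 without control replicate 3. The median log2 fold change of the 14 was 0.92, against -0.01 over all genes tested. It was the same with *Ptgs2*, the gene at or under 3 counts in every control, set to its lower bound. *Ptgs2* stayed above the median at that bound, so this check could not have moved it. The 4 were *Ptgs2*, *Dusp1*, *Ier3* and *Fos*, and 3 of them, all but *Ptgs2*, are also on the list of immediate early genes.

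*Fos*, an AP-1 subunit, had 2307, 2822 and 2438 normalized counts in control replicates 1, 2 and 3 and 4100, 8189 and 5881 in Ptch1Prrx1 replicates 1, 2 and 3. The groups did not overlap, and the log2 fold change was 1.26 (SE 0.23, with an edgeR adjusted p of 0.0180). *Dusp1*, a phosphatase that acts on p38, had 1896, 1319 and 971 normalized counts in the controls and 10206, 7561 and 4736 in the Ptch1Prrx1 samples, with a log2 fold change of 2.43 (adjusted p = 0.00947 from edgeR). *Ier3*, an early stress response gene, had 1783, 1547 and 1373 normalized counts in the controls and 6376, 3400 and 3133 in the Ptch1Prrx1 samples, with a log2 fold change of 1.46 (adjusted p = 0.0186 from edgeR). *Ptgs2*, which encodes cyclooxygenase-2, had 3, 1 and 3 expected counts in the controls and 3016, 276 and 547 in the Ptch1Prrx1 samples (adjusted p = 0.0133 from edgeR). *Ptgs2* was thus at the limit of detection in the controls, where 3 counts are 0.146 to 0.147 CPM (counts scaled to the library total). Ptch1Prrx1 replicate 1 held most of the counts of *Ptgs2*. *Ccnd1*, which encodes cyclin D1, was the one target past the adjusted p in the opposite direction, at 10606, 9922 and 8793 normalized counts in the controls and 5685, 7613 and 6559 in the Ptch1Prrx1 samples, with a log2 fold change of -0.56 (adjusted p = 0.0267 from edgeR). *Tnf*, the classic cytokine target of tristetraprolin, had a log2 fold change of 0.21 (adjusted p = 0.687 from edgeR), and those of *Cxcl1* and *Vegfa* were 1.76 and 0.93 (adjusted p of 0.158 and 0.0501 from edgeR). *Ccnd1*, *Tnf*, *Cxcl1* and *Vegfa* were picked for mention after their values were seen.

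**Figure D4:**
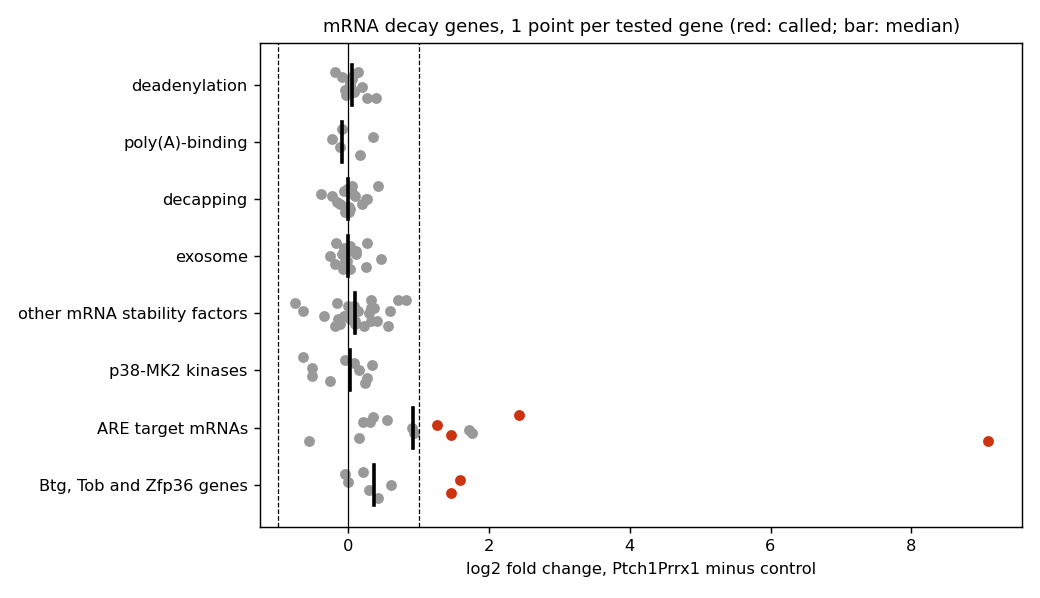
Log2 fold change (horizontal axis, Ptch1Prrx1 minus control) of each tested gene of the mRNA decay lists and of the 8 genes, 1 point per gene, red where called, with a bar at each list's median and dashed lines at a fold of 2 in either direction. No gene of the first 6 lists passes the dashed lines, 4 of the 14 ARE (AU-rich element) target mRNAs were called, and the point at the far right is *Ptgs2*, whose fitted value rests on at most 3 counts in each control.

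The Zfp36 mRNAs themselves carry the letters that their proteins bind. The longest 3′ untranslated region of each gene in the GENCODE vM21 annotation of GRCm38 was searched on the transcript strand. TATTTAT, the core of the element bound by Zfp36 proteins, was found in 6 of the 8 genes. It was in 29.9% of the 12441 tested genes with such a region. Among the listed immediate early genes it was in 61.9%, and among the listed AU-rich target mRNAs in 87%. These counts are not scaled for length. The median length of the region was 1828.5 bases over the 8 genes and 1170 over the tested genes. TATTTAT occurred 3 times in each of *Zfp36*, *Zfp36l1* and *Zfp36l2*, 2 times in *Btg3* and 1 time in *Btg2* and *Tob2*. It was not found in *Btg1* and *Tob1*. The shorter ATTTA, which lies within TATTTAT, had a median density of 3.31 per kilobase over the 8 genes and 1.29 per kilobase over the tested genes. A stretch of 30 bases is shown for the called genes and for the Zfp36 relatives that were not called, with TATTTAT and ATTTA in capitals.
Zfp36: gggcccttTATTTATgacgacttTATTTAT
Zfp36l1: agcttATTTAacttatcaaaacgTATTTAT
Zfp36l2: tcaatatgaaaaactATTTAactTATTTAT
Btg2: actgtatttttaaaatgaagagcTATTTAT
These stretches lie at bases 567 to 596 of the 3′ untranslated region of *Zfp36*, 1127 to 1156 of *Zfp36l1*, 799 to 828 of *Zfp36l2* and 80 to 109 of *Btg2*. The element was thus present in genes that were called and in *Zfp36l1*, which was not, and its presence says nothing of binding in these cells.

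*Btg2* and *Zfp36* were measured beside a wider set of immediate early genes. Of 21 such genes listed, neither *Btg2* nor *Zfp36* among them, all 21 were tested and 13 were called higher in edgeR, beside 2.34% of all genes. They included *Nr4a1*, an orphan nuclear receptor, with a log2 fold change of 3.21, *Socs3*, a feedback inhibitor of cytokine signalling, with one of 4.34, and *Jun*, an AP-1 subunit, with one of 2.47 (adjusted p of 0.00263, 0.00263 and 0.00436 from edgeR). The count of 13 was not repeated with samples left out. Without control replicate 2, 45 genes of the whole table were called higher, against 304 with all samples. No AU-rich target was called higher there, and so neither were *Fos*, *Dusp1* and *Ier3*, which are on both lists. The summed level of the 21 genes was 2587, 2735 and 2407 TPM in control replicates 1, 2 and 3 and 5087, 4954 and 4282 TPM in Ptch1Prrx1 replicates 1, 2 and 3. Its largest parts were *Klf4* and *Junb*, neither of them called. Their means were 1126 and 490 TPM in controls and 1245 and 791 TPM in Ptch1Prrx1 samples. Single genes varied more among the controls than this sum. In control replicates 1, 2 and 3, *Atf3* had 426, 40.3 and 28.1 normalized counts and *Fosb* 653, 291 and 312. *Egr1* was highest in control replicate 2, at 2396, 3635 and 1805 in the same order. Within the Ptch1Prrx1 group the sum was lowest in replicate 3, as were *Zfp36* and *Zfp36l2* in TPM, while *Btg2* had 72.5, 87.3 and 73.4 TPM in replicates 1, 2 and 3 and was lowest in replicate 1. The part of these genes in the differences of *Btg2* and *Zfp36* was not tested.

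Markers of other cells of the eye surface were also read beside these genes. The summed level of 5 immune markers was 45.5 to 50.6 TPM in controls and 49.1 to 65.9 TPM in Ptch1Prrx1 samples, nearly all of it *Cd68*. *Ptprc*, which marks all leukocytes, was at most 0.20 TPM in any sample. *Adgre1* was at most 0.11 TPM in controls and at 0 in every Ptch1Prrx1 sample. Of 7 listed stroma markers, *Lum* was not found in the expression table. The summed level of the other 6 was 2.73 to 48.0 TPM in controls, with the highest value in control replicate 3, and 2.46 to 5.93 TPM in Ptch1Prrx1 samples. *Kera* was near 0 in both groups, at most 0.07 TPM in controls and at 0 in Ptch1Prrx1 samples. The summed level of the 2 vascular endothelial markers was 0.04 to 0.10 TPM and 0.14 to 0.32 TPM, and that of the 2 Schwann cell markers was 1.85 to 2.48 TPM and 1.32 to 1.66 TPM, in the same order. The conjunctival keratins *Krt4* and *Krt13* together were at 1298 to 2100 TPM in controls and 2012 to 4080 TPM in Ptch1Prrx1 samples. *Muc5ac*, also listed for the conjunctiva, was not found in the expression table. *Krt14*, the basal cell keratin, rose from 534 to 644 TPM in controls to 2420 to 5798 TPM in Ptch1Prrx1 samples (adjusted p = 0.00769 from edgeR), with the highest value in replicate 1, where *Btg2* and *Zfp36* were not at their highest. The part of these markers in the differences of the 8 genes was not tested.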

How the data were processed

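Corneal epithelial RNA of 3 control and 3 Ptch1Prrx1 samples was measured by bulk RNA-seq. The authors aligned reads with Bowtie2 2.2.5 and quantified genes with RSEM 1.2.12 against mm9, per the submitters' processing notes. The authors deposited expected counts, TPM and FPKM for each sample. The deposited FPKM and the authors' group averages were not used. The labels name an Illumina TruSeq kit, whereas the study's methods describe ribosomal RNA depletion and DNA nanoball sequencing, so the selection of RNA is uncertain.

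Expected counts, of which 39.4% of those above 0 were not whole, were rounded and tested with edgeR 4.0.16 in R 4.3.3: the default filter by group, TMM normalization (normalized counts are counts divided by TMM-scaled library size, set to the mean library size), a quasi-likelihood fit of the 2 groups, and Benjamini-Hochberg adjustment over the 12999 genes kept of 17784. Called means that the adjusted p did not exceed 0.05 and the fold was 2 or more. Levels were compared between genes in TPM. The script was tested on simulated data. The 8 genes and all lists were chosen with earlier results of these data known. The rule named the 8 genes and their relatives, *Cnot1*, *Cnot7*, *Cnot8*, *Pabpc1*, *Elavl1* and *Zc3h12a*. In each mRNA decay list it named at most 5 called genes with the largest change. Where fewer than 2 were called, it also named the 2 with the smallest p. For *Btg2* and *Zfp36* it named the 3 genes with the most similar profile. Other genes, among them the immediate early genes, the cell markers, *Ccnd1*, *Tnf*, *Cxcl1* and *Vegfa*, were named outside this rule. An exact test of 3 against 3 cannot go below p = 0.10. A floor of 3 counts covers counting error only. Alternatives were DESeq2 1.42.0, its size factors in edgeR, no filter, no minimum fold, limma 3.58.1 on log2(TPM + 1) and log2(TPM + 0.1), a replicate block, and leaving out each sample. Sequences came from RefSeq and GENCODE on GRCm38, a later build than that of the deposited values, and were joined by symbol or gene ID.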

Additional observations from a re-analysis of the deposited data

How the results depend on the processing

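*Btg2* and *Zfp36* remained called higher in all 13 alternatives, and no other of the 8 genes was called in any of them except *Zfp36l2* with no minimum fold. The alternative with no minimum fold is the main fit under a looser rule, so it could not remove a call. The number of genes called over the whole table, 304 higher and 116 lower, was 989 and 833 with no minimum fold, 165 and 69 with limma on log2(TPM + 1), and 45 to 298 and 14 to 132 when 1 sample was left out, lowest without control replicate 2. With no minimum fold, the lists gave 1 deadenylation and 1 decapping gene higher, 4 other stability factors higher and 1 lower, 6 AU-rich targets higher (also 6 with the replicate block) and 1 lower, and 1 kinase of the p38 and MK2 route higher and 3 lower. With 1 sample left out, the called stability factors numbered 0 to 1 higher (1 without control replicate 1) and the AU-rich targets 0 to 5 higher. The log2 fold change of *Tob2* ranged from -0.11 to 0.10 and was positive without control replicate 1 (0.10) or Ptch1Prrx1 replicate 2 (0.07), and that of *Zfp36l1* ranged from -0.14 to 0.061 and was positive without control replicate 2 (0.061) or Ptch1Prrx1 replicate 1 (0.043). The cause was not tested. With a replicate block, 278 genes were called higher and 112 lower, and 2 of the 8 genes. Same-numbered samples correlated at 0.142, 0.0478 and 0.0450 in their deviations, and differently numbered ones at -0.206 to 0.186. Not every sample correlated best with its own number. So few values cannot decide whether same-numbered samples were paired. The 8 AU-rich targets that failed the filter had at most 13 counts in any sample and were not tested.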

Other observations

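In normalized counts, *Btg2*, *Zfp36* and *Zfp36l2* were each highest in Ptch1Prrx1 replicate 2 and lowest in replicate 3; in TPM *Btg2* was lowest in replicate 1 (72.5 TPM, against 73.4 TPM in replicate 3). By normalized counts, of the 304 genes called higher, 250 (82.2%) were highest in replicate 1, 19 (6.25%) in replicate 2 and 35 (11.5%) in replicate 3, and 14 (4.61%) were highest in replicate 2 and lowest in replicate 3. Among the 13 called immediate early genes, 9 were highest in replicate 1, 3 in replicate 2 (*Fos*, *Egr1* and *Nr4a1*) and 1 in replicate 3 (*Fosb*).

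The genes with the profile most like that of *Btg2* over the 6 samples were *Ripk3*, *Bambi* and *Fry*, with root mean square differences of 0.153, 0.209 and 0.220 between centred log2 CPM values, among 12180 candidates. For *Zfp36* they were *Ripk3*, *Neto2* and *Bambi*, with differences of 0.192, 0.210 and 0.221. The difference between *Btg2* and *Zfp36* themselves was 0.162. The log2 fold changes were 1.56 for *Ripk3*, a kinase of necroptosis, 1.41 for *Bambi*, a pseudoreceptor that dampens TGF-beta signalling, 1.20 for *Fry* and 1.14 for *Neto2*. The profiles hold the group difference, so similar fold changes follow from how these genes were picked and add no separate evidence. Whether they share regulation with *Btg2* or *Zfp36* was not tested.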
